A study of Homo sapiens with 14 samples.

Results

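The MYC, MAX and MXD network is described here by 10 genes, chosen by symbol: MYCN, MYC, MAX, MXI1, MXD1, MXD3, MXD4, MNT, MLX and MGA. All 10 were found among the 61533 genes of the count table, and all 10 passed the filter on low counts that left 16056 genes for testing. PolyA RNA was sequenced from cells of SH-EP, an adherent line established from a human neuroblastoma. The 4 groups used were an n-Myc SPARK-ON line with lenalidomide (3 libraries), the same line with DMSO, the solvent (3 libraries), a line named n-Myc control, which has no SPARK-ON, with lenalidomide (2 libraries), and that control line with DMSO (3 libraries). Per the series design, the SPARK-ON cells are a single clone that expresses n-Myc below the level at which it separates into droplets, and lenalidomide brings the droplets about at an unchanged protein concentration. All 4 groups bear n-Myc in their labels, which give no dose and no time in hours. Lenalidomide is a drug that binds the ubiquitin ligase subunit cereblon. Differences between the lines are differences between a clone and its comparison line, and clone and construct cannot be told apart.

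Total counts lay between 6614671 (SPARK-ON lenalidomide replicate 3) and 21511684 per library, and 3 counts, the limit that a count of 0 allows, corresponded to between 0.143 and 0.441 CPM, the count scaled to library size (TMM). That limit covers counting error only. The 6 markers of mesenchymal neuroblastoma cells (VIM, FN1, CD44, YAP1, PRRX1 and SNAI2) were expressed in every group, with summed levels of 1300 to 1401 CPM in SPARK-ON lenalidomide, 1237 to 1283 CPM in SPARK-ON DMSO, 2638 to 2665 CPM in control lenalidomide and 2516 to 2715 CPM in control DMSO. Of the 7 adrenergic markers the factors PHOX2A and ISL1 were at 0 throughout, and the list summed to at most 7.33 CPM in SPARK-ON lenalidomide, 8.28 CPM in SPARK-ON DMSO, 8.73 CPM in control lenalidomide and 7.16 CPM in control DMSO. The 5 markers of other cell types (PTPRC, EPCAM, PECAM1, ALB and HBA1) summed to at most 2.94 CPM in any library, and HBA1 was at 0. The mesenchymal sum moved with the line, CD44 and VIM being lower and FN1 higher in SPARK-ON cells. Of the adrenergic markers HAND2 moved with the line, at 0.84 to 1.33 CPM in SPARK-ON DMSO, against 0.0543 to 0.143 CPM in control DMSO, and at 0 to 0.856 CPM in SPARK-ON lenalidomide, against 0 in control lenalidomide. The part of either list in the differences between the lines was not tested. Whether replicates were grown separately is not stated in the labels, and the p-values then cover only the variation among these libraries, which may be technical.

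The proteins of this network are basic helix-loop-helix leucine zipper factors that bind DNA as pairs. MYC and its relative n-Myc, the product of MYCN, pair with MAX and activate genes at E-boxes. The MXD proteins (MXD1, MXI1, MXD3 and MXD4), MNT and MGA also pair with MAX, compete with MYC for it and repress, the MXD proteins and MNT through the SIN3 corepressor. MLX is a MAX-like protein that pairs with some MXD proteins, with MNT and with the glucose-responsive factors MLXIP and MLXIPL. In neuroblastoma, amplification of MYCN marks high-risk disease, and SH-EP is a line without that amplification.

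A gene was called when its adjusted p was below 0.05 by edgeR's quasi-likelihood test over all 16056 genes, and changes are log2 values. Over the 10 genes, the comparison of the lines in DMSO called 1 gene higher (MNT) and 3 lower (MXI1, MXD3 and MXD4). Of all 16056 genes 41.6% were called in this comparison, 21.1% higher and 20.4% lower, so that 4 of 10 is the share seen over all genes. With lenalidomide it called 2 higher (MYC and MNT) and the same 3 lower, beside 39.4% of all genes, 19.7% higher and 19.7% lower. Under library size scaling the calls over all genes were 4262 higher and 2547 lower in DMSO, in place of 3395 and 3280, and 4045 higher and 2396 lower with lenalidomide, in place of 3165 and 3169. The direction of MXI1, MXD3, MXD4 and MNT and their calls were the same under that scaling and under RLE scaling. The median change of the 10 members was -0.02 in DMSO and 0.07 with lenalidomide, beside 0.01 and 0.02 for all genes tested.

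The promoters of the 4 members that differed between the lines under both treatments are shown because they are the stretches at which these genes could be compared for the E-box of the network itself. Each line gives the 250 bases before the RefSeq start on GRCh38.p14, read 5′ to 3′ on the gene's own strand, with the motif CACGTG in capitals. MXI1 has 3 such starts in RefSeq, and the one at the annotated start of the gene is given.
MXI1, chr10:110207355-110207604, plus strand: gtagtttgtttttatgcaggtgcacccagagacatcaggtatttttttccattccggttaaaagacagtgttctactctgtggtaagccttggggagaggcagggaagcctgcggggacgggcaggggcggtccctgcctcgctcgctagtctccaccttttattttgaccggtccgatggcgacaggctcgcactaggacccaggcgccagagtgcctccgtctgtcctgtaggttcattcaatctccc
MXD3, chr5:177312753-177313002, minus strand: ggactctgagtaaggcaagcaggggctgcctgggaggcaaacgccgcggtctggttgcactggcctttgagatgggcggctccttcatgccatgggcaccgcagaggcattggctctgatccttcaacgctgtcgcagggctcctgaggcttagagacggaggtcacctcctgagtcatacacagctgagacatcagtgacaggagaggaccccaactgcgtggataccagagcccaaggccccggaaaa
MXD4, chr4:2262110-2262359, minus strand: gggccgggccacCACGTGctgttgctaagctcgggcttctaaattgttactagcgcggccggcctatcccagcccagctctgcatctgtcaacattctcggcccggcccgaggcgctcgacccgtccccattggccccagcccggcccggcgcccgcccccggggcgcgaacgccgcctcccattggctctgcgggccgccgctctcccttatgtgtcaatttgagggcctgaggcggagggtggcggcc
MNT, chr17:2401061-2401310, minus strand: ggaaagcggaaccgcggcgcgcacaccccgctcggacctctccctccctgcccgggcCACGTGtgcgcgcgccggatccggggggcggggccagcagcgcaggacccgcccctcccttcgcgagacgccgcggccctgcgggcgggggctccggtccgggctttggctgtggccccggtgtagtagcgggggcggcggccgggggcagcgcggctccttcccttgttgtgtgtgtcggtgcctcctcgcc
CACGTG reads the same on both strands. It was present once in the MXD4 promoter, starting 238 bases before the start, and once in that of MNT, 193 bases before it. It was not in these windows of MXI1 and MXD3, nor at the other starts of MXI1. RefSeq promoters were at hand for 9 of the 10 members, with 14 starts, and the motif was in 3 of those 9 members, the other being MLX at 50 bases before its start. Of 35116 RefSeq promoters 6.34% held it in a window of this length, and of 16539 promoters of tested genes 8.05% did. Counted by gene, as for the members, 1253 of 11366 tested genes with a promoter in the table held it at 1 start or more.

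Reads counted as MYCN (ENSG00000134323.12, chromosome 2, 15940564 to 15947007, GRCh38) exceeded those of every other member by far in all 11 libraries. Its level was 2618, 2420 and 2485 CPM in SPARK-ON lenalidomide, 2248, 2398 and 2186 CPM in SPARK-ON DMSO, 2762 and 2330 CPM in control lenalidomide, and 2089, 2574 and 2615 CPM in control DMSO. The 4 groups overlapped, except that each SPARK-ON lenalidomide library lay above each SPARK-ON DMSO library. MYCN was between the 15th and the 34th most counted of the 16056 genes, the 34th place being that of control DMSO replicate 1. Counts do not separate transcripts of the locus from those of an introduced MYCN. MYCNOS, the antisense gene that shares 98 of its exon bases, had 8 counts in SPARK-ON DMSO replicate 2, 1 in control DMSO replicate 3 and 0 in the other libraries.

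MYCN did not differ between the lines by the test over all libraries. The change of SPARK-ON over control was -0.09 on the log2 scale in DMSO (95% interval -0.26 to 0.08, edgeR's quasi-likelihood test with Benjamini-Hochberg adjustment, adjusted p = 0.404) and -0.02 with lenalidomide (-0.22 to 0.17, adjusted p = 0.873). Without control DMSO replicate 1, which had the lowest MYCN level, the change in DMSO was -0.20 with adjusted p = 0.00924 by edgeR. Under library size scaling the change with lenalidomide was 0.08 instead of -0.02, neither with a call.

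**Figure D1:**
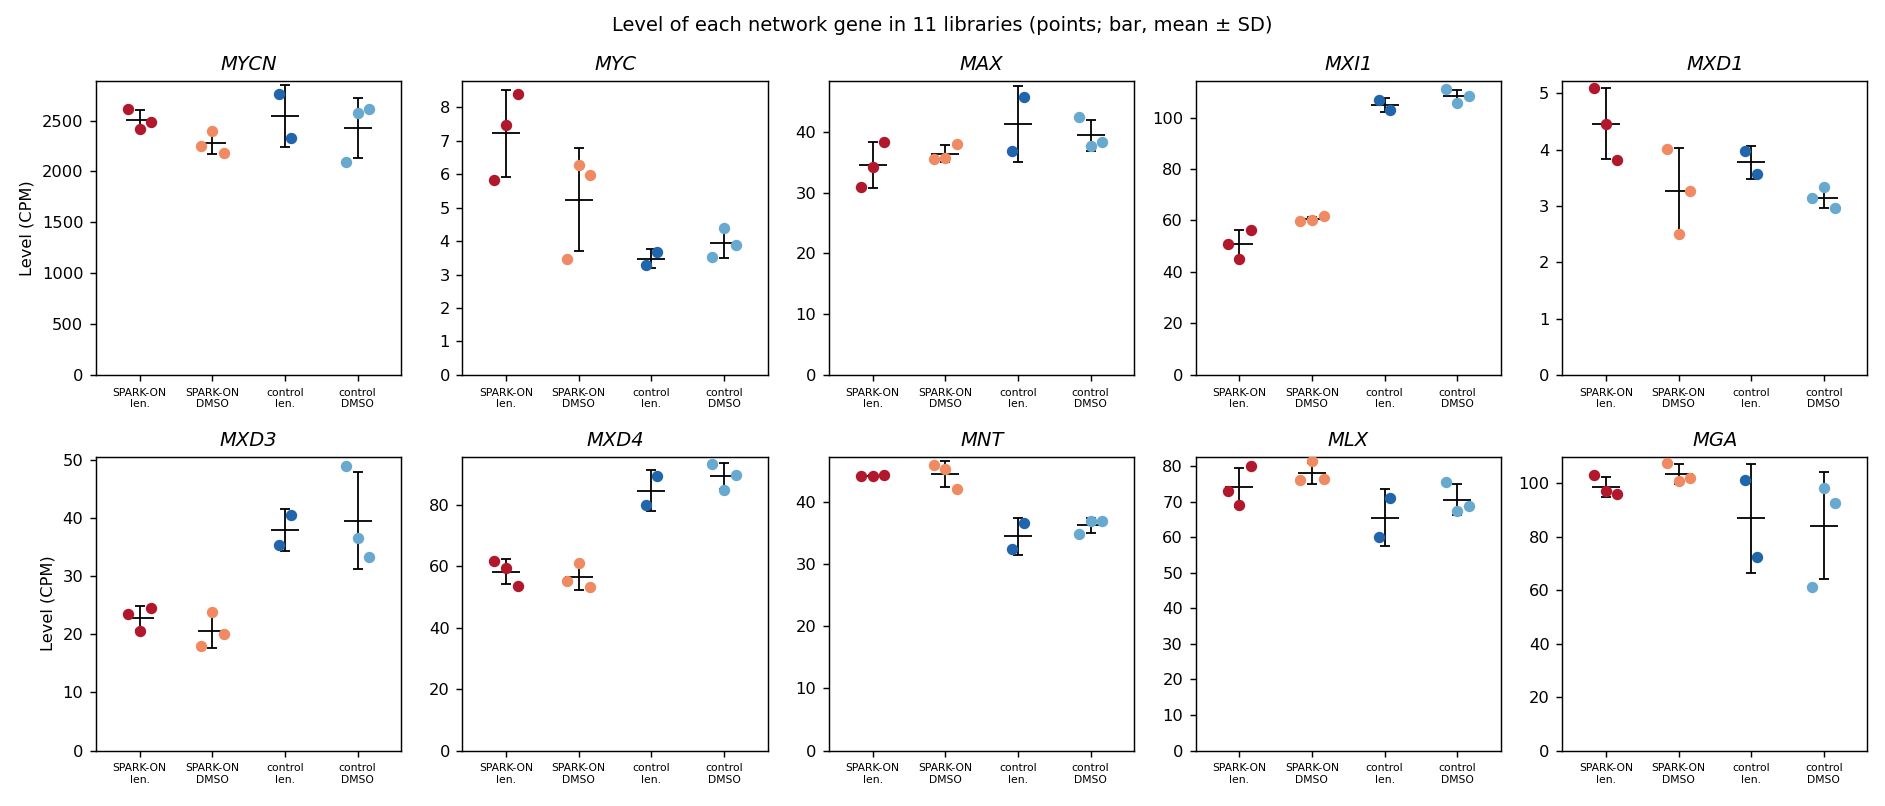
Level of each of the 10 network genes in CPM (vertical axes, from 0) in each library, grouped by line and treatment (len., lenalidomide), with points for libraries and bars for the mean ± SD. MXI1, MXD3 and MXD4 are lower and MNT is higher in the 6 SPARK-ON libraries than in any of the 5 control libraries.

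MYC, the founding member of the family (ENSG00000136997.21, chromosome 8, 127735434 to 127741434), was counted at a low level. It had 5.82, 7.46 and 8.38 CPM in SPARK-ON lenalidomide, 3.48, 6.27 and 5.98 CPM in SPARK-ON DMSO, 3.29 and 3.67 CPM in control lenalidomide, and 3.53, 4.40 and 3.87 CPM in control DMSO, which rests on 52 to 122 counts a library. The highest 3 libraries were not all of 1 treatment, but every SPARK-ON lenalidomide library was above every control library of either treatment. With lenalidomide, MYC was higher in SPARK-ON than in control cells by 1.02 (SE 0.26, edgeR adjusted p = 0.0042), with no overlap between the groups. In DMSO the change was 0.42 (SE 0.22, adjusted p = 0.149), and SPARK-ON DMSO replicate 1, at 3.48 CPM, was the lowest of the 6. Without that replicate the DMSO change was 0.64 with adjusted p = 0.0253. The difference between these line effects, which is also the difference in the response to lenalidomide, was 0.61 (95% interval -0.11 to 1.33, edgeR adjusted p = 1).

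MYCL, the third MYC gene, was counted still less, at 1.81 ± 0.39 CPM in SPARK-ON lenalidomide and 1.26 ± 0.12 CPM in SPARK-ON DMSO (SD, n = 3 each), 1.70 ± 0.079 CPM in control lenalidomide (n = 2) and 1.76 ± 0.049 CPM in control DMSO (n = 3).

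MAX, the obligate partner of MYC and n-Myc (ENSG00000125952.20, chromosome 14, 65006174 to 65102695), lay between 31.0 and 45.7 CPM over all libraries. It had 31.0, 34.3 and 38.4 CPM in SPARK-ON lenalidomide, 35.6, 35.6 and 38.0 CPM in SPARK-ON DMSO, 36.9 and 45.7 CPM in control lenalidomide, and 42.4, 37.7 and 38.3 CPM in control DMSO. Its groups overlapped in every comparison. The MAX change of SPARK-ON over control was -0.27 with lenalidomide (95% interval -0.51 to -0.03, edgeR adjusted p = 0.0678) and -0.12 in DMSO (-0.33 to 0.10, adjusted p = 0.385). Without control lenalidomide replicate 2, the highest library, the change with lenalidomide was -0.11 (adjusted p = 0.557). It passed the threshold without SPARK-ON lenalidomide replicate 3 (adjusted p = 0.0388), control lenalidomide replicate 1 (adjusted p = 0.0191) or control DMSO replicate 1 (adjusted p = 0.0314), each by edgeR.

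MXI1, MXD3 and MXD4, which encode repressors that take MAX from MYC, were lower in the SPARK-ON line under both treatments. MXI1 (ENSG00000119950.21, chromosome 10, 110207605 to 110287365) had 50.7, 45.2 and 56.5 CPM in SPARK-ON lenalidomide, 59.8, 60.3 and 61.6 CPM in SPARK-ON DMSO, 107 and 103 CPM in control lenalidomide, and 111, 106 and 108 CPM in control DMSO. All SPARK-ON libraries were below all control libraries. In bulk RNA fewer cells with a transcript and less of it per cell cannot be told apart. The MXI1 change of SPARK-ON over control was -0.84 in DMSO (SE 0.080, adjusted p = 1.28e-07) and -1.05 with lenalidomide (SE 0.090, adjusted p = 3.85e-08), by edgeR.

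MXD3 (ENSG00000213347.11, chromosome 5, 177301461 to 177312757), a member of the family linked to dividing cells, had 23.4, 20.6 and 24.6 CPM in SPARK-ON lenalidomide, 18.1, 23.8 and 20.04 CPM in SPARK-ON DMSO, 35.4 and 40.4 CPM in control lenalidomide, and 49.0, 36.5 and 33.2 CPM in control DMSO. Control DMSO replicate 1 was the highest and the lines did not overlap. The MXD3 change was -0.94 in DMSO (SE 0.14, adjusted p = 2.23e-05) and -0.74 with lenalidomide (SE 0.15, adjusted p = 0.00086) by edgeR. Of the exon bases of MXD3 22.5% are shared with PRELID1 on the opposite strand and 17.97% with RAB24 on its own strand, and the sources used here do not give the strand setting of the counting. PRELID1, a mitochondrial lipid transfer gene, had changes of -0.11 and -0.10 in DMSO and with lenalidomide, and RAB24, a small GTPase gene, of 0.14 and -0.13, with no call for either.

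MXD4 (ENSG00000123933.17, chromosome 4, 2247432 to 2262294) had 61.7, 59.6 and 53.7 CPM in SPARK-ON lenalidomide, 55.2, 61.2 and 53.3 CPM in SPARK-ON DMSO, 79.9 and 89.5 CPM in control lenalidomide, and 93.5, 85.0 and 89.6 CPM in control DMSO. The lines did not overlap, while treatments within a line did. The MXD4 change of SPARK-ON over control was -0.66 in DMSO (SE 0.084, adjusted p = 4.63e-06) and -0.53 with lenalidomide (SE 0.094, adjusted p = 0.000199) by edgeR.

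MXD1, the founding MXD gene (ENSG00000059728.11, chromosome 2, 69897688 to 69942945), did not share this difference between the lines. Its levels were 5.09, 4.47 and 3.82 CPM in SPARK-ON lenalidomide, 4.02, 2.51 and 3.27 CPM in SPARK-ON DMSO, 3.98 and 3.57 CPM in control lenalidomide, and 3.15, 3.33 and 2.96 CPM in control DMSO, which rests on 26 to 84 counts a library. SPARK-ON and control libraries overlapped under both treatments. The MXD1 change was 0.06 in DMSO (95% interval -0.41 to 0.53) and 0.27 with lenalidomide (-0.25 to 0.78), and both intervals end above the MXD3 changes of the same comparisons.

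MNT, the most widely expressed MAX-pairing repressor (ENSG00000070444.15, chromosome 17, 2384060 to 2401118), was higher in SPARK-ON cells. It had 44.2, 44.2 and 44.3 CPM in SPARK-ON lenalidomide, 46.0, 45.3 and 42.1 CPM in SPARK-ON DMSO, 32.4 and 36.6 CPM in control lenalidomide, and 34.9, 36.9 and 37.0 CPM in control DMSO. No control library reached a SPARK-ON library. The MNT change was 0.29 in DMSO (SE 0.083, adjusted p = 0.00832) and 0.36 with lenalidomide (SE 0.095, adjusted p = 0.00586) by edgeR. The second value was 0.27 with adjusted p = 0.0876 without control lenalidomide replicate 1, which leaves 1 library in that group and assumes that it varies like the others.

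MLX (ENSG00000108788.12, chromosome 17, 42567068 to 42573239) had 72.9, 69.1 and 80.0 CPM in SPARK-ON lenalidomide, 76.1, 81.4 and 76.5 CPM in SPARK-ON DMSO, 59.9 and 71.1 CPM in control lenalidomide, and 75.4, 67.5 and 68.8 CPM in control DMSO. In DMSO the SPARK-ON libraries all lay above the control ones, and with lenalidomide they overlapped. The MLX changes of 0.14 in DMSO (adjusted p = 0.195) and 0.17 with lenalidomide (adjusted p = 0.186) did not pass by edgeR. Under library size scaling, which moved the median of all genes by 0.09 and 0.11 in these comparisons, the MLX changes were 0.24 (adjusted p = 0.0284) and 0.28 (adjusted p = 0.0276). Of the exon bases of MLX 18.1% are shared with PSMC3IP on the opposite strand, a recombination factor gene with no call in these comparisons. Of the partners of MLX, MLXIP was at 30.2 ± 3.5 CPM in SPARK-ON lenalidomide and 32.4 ± 1.4 CPM in SPARK-ON DMSO (SD, n = 3 each), 32.6 ± 2.9 CPM in control lenalidomide (n = 2) and 30.5 ± 5.2 CPM in control DMSO (n = 3). MLXIPL, the other partner, had 11 counts in SPARK-ON lenalidomide replicate 1 and 2 or 0 in the other libraries.

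MGA, a large MAX-binding scaffold that carries a polycomb-type repressor complex (ENSG00000174197.18, chromosome 15, 41621224 to 41773081), varied most among control libraries. It had 103, 97.3 and 95.9 CPM in SPARK-ON lenalidomide, 108, 101 and 102 CPM in SPARK-ON DMSO, 101 and 72.5 CPM in control lenalidomide, and 61.3, 98.4 and 92.7 CPM in control DMSO. Control DMSO replicate 1 and control lenalidomide replicate 2 were the low libraries, and all 3 SPARK-ON DMSO libraries lay above the 3 control DMSO libraries, while the groups with lenalidomide overlapped. The MGA change was 0.30 in DMSO (SE 0.14, adjusted p = 0.0918) and 0.19 with lenalidomide (SE 0.16, adjusted p = 0.368) by edgeR. Without control DMSO replicate 1, the lowest library, the MGA change in DMSO was 0.11 (adjusted p = 0.386). It passed without control DMSO replicate 2 (0.42, adjusted p = 0.0233), without a filter on low counts (0.29, adjusted p = 0.007) and under library size scaling (0.39, adjusted p = 0.0421).

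MGA has 17651 merged exon bases, the most of the 10 genes, and long genes as a class stood low in the same libraries. The median deviation of 1718 genes of at least 10000 exon bases from the mean of the control line was -0.19 on the log2 scale in control DMSO replicate 1 and -0.07 in control lenalidomide replicate 2, against 0.07 to 0.10 in the other 3 control libraries. For the 2529 genes under 2000 exon bases it was 0.16 and 0.09, against -0.11 to -0.06. MGA deviated by -0.45 and -0.21 in those libraries and by 0.15 to 0.28 in the other control libraries. MXD3, with 5154 merged exon bases, deviated the other way, by 0.34 and 0.07, against -0.21 to -0.08. MYCN deviated like MGA, by -0.24 and -0.08, against 0.06 to 0.17, although its 2602 merged exon bases are the fewest of the 10 genes. MXD3 and MYCN belong to neither length class, and their deviations do not follow the order of their lengths. In the SPARK-ON line the medians of long genes stayed within -0.02 and 0.02. The part of this split in the line differences of MGA, MXD3 and MYCN was not tested. Without control DMSO replicate 1, the changes in DMSO were 0.11 for MGA (adjusted p = 0.386, no call), -0.77 for MXD3 (adjusted p = 4.24e-06) and -0.20 for MYCN (adjusted p = 0.00924), by edgeR.

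**Figure D2:**
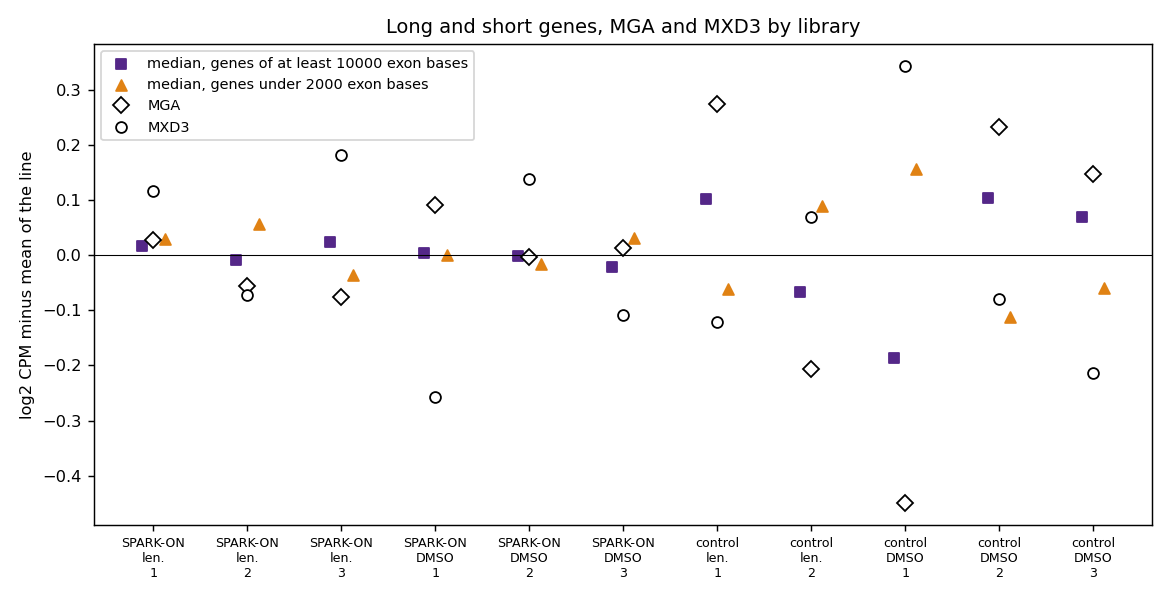
Deviation of log2 CPM from the mean of the line (vertical axis) in each library (horizontal axis; len., lenalidomide), as medians over long and short genes and for MGA and MXD3. Control DMSO replicate 1 has the lowest median of long genes, -0.19, and the lowest MGA value, -0.45.

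**Figure D3:**
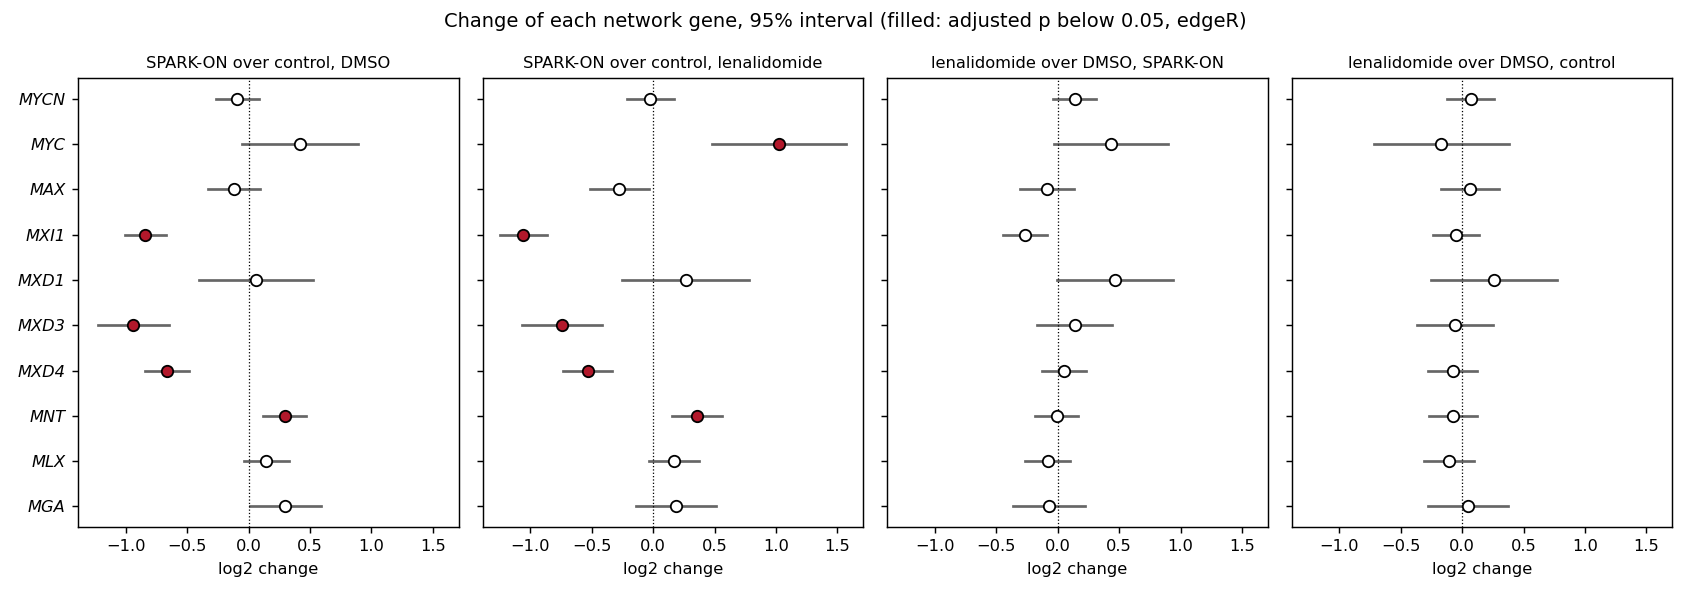
Log2 change (horizontal axes) of each network gene with its 95% interval in 4 comparisons, SPARK-ON over control in DMSO and with lenalidomide, and lenalidomide over DMSO in SPARK-ON and in control cells. Filled points have an adjusted p below 0.05 by edgeR, and they lie in the comparisons of the lines, with MXI1 at -0.84 and -1.05.

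Levels of different genes were set side by side per kilobase of merged exons (RPKM). MYCN stood at 964 ± 39 RPKM in SPARK-ON lenalidomide and 875 ± 42 RPKM in SPARK-ON DMSO (SD, n = 3 each), 979 ± 117 RPKM in control lenalidomide (n = 2) and 932 ± 112 RPKM in control DMSO (n = 3). The sources used here do not give the length of an introduced MYCN transcript, and the length of the locus was used in its place. On this scale MYCN was between 83.9 and 144 times the level of MAX in single libraries, and between 342 and 969 times that of MYC. The ratio of MYCN to MAX levels was 125 ± 17 in SPARK-ON lenalidomide, 107 ± 8.3 in SPARK-ON DMSO, 107 ± 29 in control lenalidomide and 105 ± 19 in control DMSO, and the libraries of the 4 groups overlapped.

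Below MYCN, the order of the levels per length differed between the lines. In SPARK-ON DMSO it was MLX (18.3 ± 0.69 RPKM), MXI1 (13.2 ± 0.20), MAX (8.22 ± 0.31), MXD4 (8.01 ± 0.58), MGA (5.87 ± 0.21), MNT (5.10 ± 0.24), MXD3 (4.01 ± 0.57), MYC (1.75 ± 0.51) and MXD1 (0.514 ± 0.12). Of these neighbours MAX and MXD4 did not differ beyond their spread. In control DMSO MXI1 led with 23.5 ± 0.55 RPKM, ahead of MLX (16.6 ± 1.0), MXD4 (12.7 ± 0.61), MAX (8.91 ± 0.57) and MXD3 (7.67 ± 1.6), with MGA (4.77 ± 1.1), MNT (4.16 ± 0.14), MYC (1.31 ± 0.15) and MXD1 (0.496 ± 0.029) below. There MAX and MXD3, and MGA and MNT, did not differ beyond their spread. The 4 MXD genes together gave 24.4 ± 1.3 RPKM in SPARK-ON lenalidomide, 25.7 ± 0.96 RPKM in SPARK-ON DMSO, 42.7 ± 1.0 RPKM in control lenalidomide and 44.3 ± 2.6 RPKM in control DMSO. This sum was 3.16 ± 0.38, 3.13 ± 0.19, 4.62 ± 0.59 and 4.98 ± 0.030 times the level of MAX in the same order of groups.

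**Figure D4:**
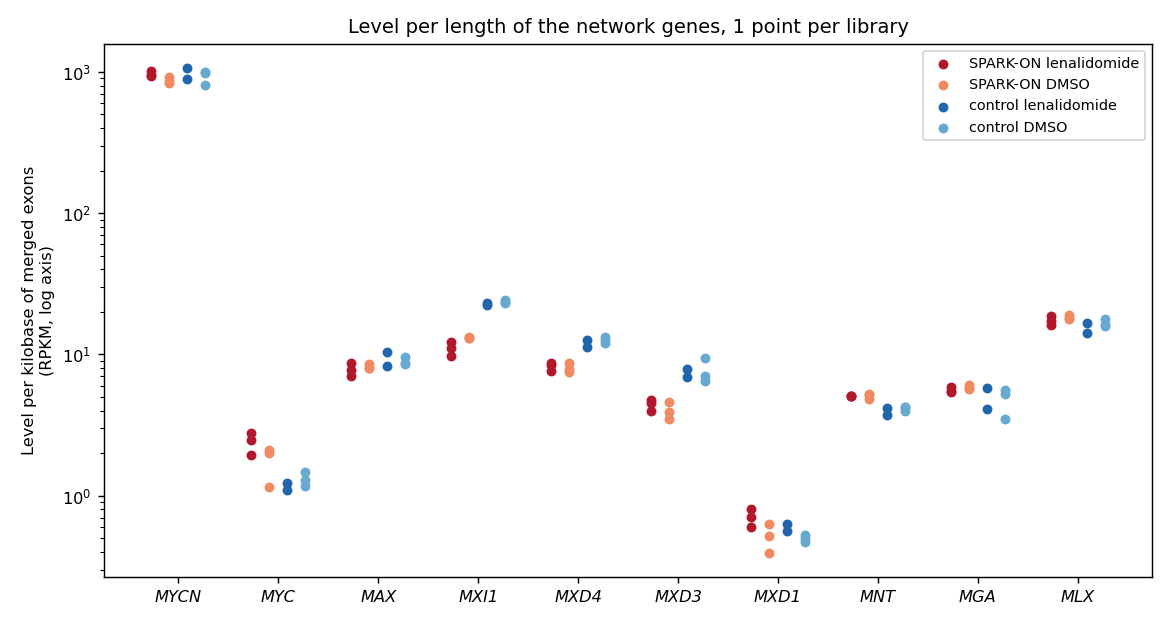
Level of each network gene per kilobase of merged exons (vertical log axis, RPKM) with 1 point per library, coloured by group. MYCN lies between 803 and 1061 RPKM, far above the others, and MXI1, MXD4 and MXD3 lie lower in the SPARK-ON libraries.

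Lenalidomide in SPARK-ON cells, the treatment that brings n-Myc to phase separate per the series design, called 0 of the 10 genes in either direction, beside 0.0685% of all genes tested. By edgeR 1 of the 10 had an unadjusted p below 0.05, and DESeq2 and limma-voom also called 0. MXI1 was that gene: each of the 3 lenalidomide libraries, at 45.2 to 56.5 CPM, lay below each DMSO library, at 59.8 to 61.6 CPM. Its change was -0.26 (SE 0.083, 95% interval -0.44 to -0.09, unadjusted p = 0.00537, edgeR adjusted p = 0.635). When only the 6 SPARK-ON libraries were fitted, MXI1 changed by -0.28 (adjusted p = 0.00896) and MYCN by 0.14 (adjusted p = 0.0233), so that 2 of the 10 were called by edgeR, beside 2.60% of 14652 genes. The biological coefficient of variation was 4.71% in that fit, in place of 9.40% over all 11 libraries. It was 12.9% when only the control libraries were fitted. The fit over all 11 libraries thus tests SPARK-ON cells with a spread estimated from both lines.

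MYC and MXD1 had the most positive changes with lenalidomide in SPARK-ON cells, 0.44 (95% interval -0.03 to 0.90) and 0.47 (-0.001 to 0.94), both with overlapping groups and edgeR adjusted p of 0.939 and 0.924. Without SPARK-ON DMSO replicate 1 the MYC change was 0.21. The other 7 changes, leaving out MXI1, lay between -0.09 (MAX) and 0.14 (MXD3 and MYCN). The intervals of MNT (-0.18 to 0.17), MXD4 (-0.13 to 0.23) and MLX (-0.26 to 0.10) include changes of either sign. The median over the members was 0.02, beside 0.007 over all genes tested.

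Lenalidomide in control cells, which the series design names as the control for the compound itself, also called 0 of the 10 genes, beside 0.0436% of all genes (0.0374% higher and 0.00623% lower). By edgeR 0 members had an unadjusted p below 0.05, and 0 were called by DESeq2 or limma-voom. MXD1 had the most positive change, 0.26 (SE 0.24), with 3.98 and 3.57 CPM with lenalidomide above the 2.96 to 3.33 CPM in DMSO. MYC had the most negative, -0.17 (SE 0.26). MXI1 changed by -0.05 there (95% interval -0.23 to 0.14), and the difference between the lines in its response was -0.22 (-0.47 to 0.04, edgeR adjusted p = 1). No member was called for a difference in response between the lines, beside 0% of all genes, with 0 members at an unadjusted p below 0.05 and 0 called by DESeq2 or limma-voom.

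Genes around the network were read from lists chosen with earlier results of these data known, FBXO32 and DKK1 included, so that their counts are descriptions. They stand beside the 41.6% of all genes called between the lines in DMSO and the 39.4% with lenalidomide. With SPARK-ON over control in DMSO, 3 of 8 tested relatives of the family were called (37.5%, beside 41.6% of all genes), 1 higher and 2 lower. The E-box factor USF2 fell to 97.4 ± 5.5 CPM in SPARK-ON, against 176 ± 25 CPM in control (SD, n = 3 each; change -0.85, adjusted p = 1.87e-06). The melanocyte and lysosome factor MITF fell to 10.4 ± 1.3 CPM, against 19.8 ± 1.2 CPM in control (-0.93, adjusted p = 1.41e-05), and its relative TFE3 rose to 133 ± 8.0 CPM, against 107 ± 5.1 CPM in control (0.31, adjusted p = 0.00163), all by edgeR.

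Of the 13 corepressor genes through which MXD proteins, MNT and other repressors act, 1 rose and 3 fell in DMSO (30.8%, beside 41.6% of all genes), and 1 rose and 4 fell with lenalidomide (38.5%, beside 39.4%). Their median change was -0.09 in DMSO and -0.16 with lenalidomide, beside 0.01 and 0.02 for all genes tested. SIN3B, a scaffold that the MXD proteins bind, fell to 64.7 ± 1.1 CPM in SPARK-ON DMSO, against 109 ± 9.0 CPM in control DMSO (SD, n = 3 each; -0.75, edgeR adjusted p = 2.2e-07). HDAC2, a deacetylase of the same complex, fell to 418 ± 1.4 CPM, against 502 ± 7.8 CPM in control (-0.26, adjusted p = 0.0021). NCOR1, a corepressor of nuclear receptors, rose to 170 ± 8.5 CPM, against 123 ± 33 CPM in control (0.47, adjusted p = 0.0086). Its libraries spanned 164 to 180 CPM in SPARK-ON DMSO and 84.3 to 145 CPM in control DMSO. The part of the split between long and short genes in this spread was not tested. Of 13 genes of the repressor complex that MGA carries, 1 rose and 2 fell in DMSO (23.1%, beside 41.6% of all genes) and 0 rose and 4 fell with lenalidomide (30.8%, beside 39.4%), among them PCGF6, a subunit particular to that complex, at 40.04 ± 1.25 CPM in SPARK-ON (n = 3) and 48.2 ± 3.3 CPM in control with lenalidomide (n = 2; -0.27, edgeR adjusted p = 0.0245).

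Of 19 coactivators of MYC 1 rose and 5 fell in DMSO (31.6%, beside 41.6% of all genes), and 1 rose and 6 fell with lenalidomide (36.8%, beside 39.4%). RUVBL2, an ATPase that binds MYC, fell to 210 ± 14 CPM in SPARK-ON DMSO, against 321 ± 48 CPM in control DMSO (SD, n = 3 each; -0.61, edgeR adjusted p = 0.0001). Of 21 genes for the turnover of MYC and n-Myc proteins 3 rose and 5 fell in DMSO (38.1%, beside 41.6% of all genes), and 3 rose and 6 fell with lenalidomide (42.9%, beside 39.4%). GSK3A, a kinase of the family that marks MYC for degradation, fell to 38.4 ± 5.2 CPM, against 70.2 ± 12 CPM in control (-0.87, adjusted p = 9.22e-06), and the deubiquitinase gene USP22 rose to 380 ± 27 CPM, against 262 ± 29 CPM in control (0.54, adjusted p = 3.77e-05), in DMSO by edgeR. With lenalidomide in SPARK-ON cells 1 of the 21 rose, beside 0.0685% of all genes. It was the ubiquitin ligase subunit gene FBXO32, at 299 ± 14 CPM with lenalidomide and 223 ± 15 CPM in DMSO (0.42, edgeR adjusted p = 0.0263). FBXO32 was listed with earlier results of these data known, so this count cannot be weighed against the share over all genes.

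Of 5 tested genes that answer to MLX and its partners, 1 rose and 1 fell in DMSO, beside 41.6% of all genes called. With lenalidomide 1 rose and 1 fell as well, beside 39.4%. ARRDC4, an arrestin-like gene, rose to 11.2 ± 0.99 CPM in SPARK-ON DMSO, against 6.42 ± 0.49 CPM in control DMSO (SD, n = 3 each; 0.80, edgeR adjusted p = 0.000128). HK2, the hexokinase 2 gene, fell to 25.4 ± 1.4 CPM, against 41.1 ± 3.7 CPM in control (-0.70, adjusted p = 1.16e-05). TXNIP, ACACA and FASN were not called. TXNIP was at 10.5 ± 1.0 CPM in SPARK-ON DMSO and 12.2 ± 1.8 CPM in control DMSO.

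Of 29 tested genes known to be activated by MYC, 6 rose and 4 fell in SPARK-ON over control in DMSO (34.5%, beside 41.6% of all genes), and 2 rose and 7 fell with lenalidomide (31.0%, beside 39.4%). PAICS, of purine synthesis, fell to 1459 ± 45 CPM in SPARK-ON DMSO, against 1878 ± 92 CPM in control DMSO (-0.36, edgeR adjusted p = 6.16e-05), while TFRC, the transferrin receptor gene, rose to 1034 ± 37 CPM, against 717 ± 69 CPM in control (0.53, adjusted p = 1.88e-05; SD, n = 3 each). With lenalidomide in SPARK-ON cells 28 of the 29 had a negative change (median -0.12, beside 0.007 for all genes tested, of which 48.2% had a negative change), and 0 rose or fell. By edgeR 8 of the 29 had an unadjusted p below 0.05, as had 860 of all 16056 genes. In control cells 20 of the 29 had a negative change (median -0.04) and 0 were called, with 1 at an unadjusted p below 0.05, as had 774 of all 16056 genes. This list was chosen with earlier results of these data known. Its signs, medians and unadjusted p-values are descriptions and cannot be weighed against those of all genes.

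Of 18 tested genes known to be repressed by MYC, 7 rose and 6 fell in SPARK-ON over control in DMSO (72.2%, beside 41.6% of all genes), and 9 rose and 6 fell with lenalidomide (83.3%, beside 39.4%). CDKN1C was at 0 in every control library and at 0.396 to 0.917 CPM in SPARK-ON libraries. NDRG2 was at most 0.535 CPM in control and at 3.27 to 4.74 CPM in SPARK-ON libraries. Both passed the filter on low counts through the SPARK-ON libraries, so these line counts and shares are descriptions only. COL1A2, a fibrillar collagen gene, fell to 5.12 ± 0.28 CPM in SPARK-ON DMSO, against 57.5 ± 6.3 CPM in control DMSO (-3.48, edgeR adjusted p = 3.47e-13), NDRG1, a stress response gene, fell to 65.9 ± 4.0 CPM, against 229 ± 12.5 CPM in control (-1.79, adjusted p = 1.17e-12), and CLU, the clusterin gene, rose to 150 ± 5.4 CPM, against 33.5 ± 2.9 CPM in control (2.16, adjusted p = 6.39e-13; SD, n = 3 each). With lenalidomide in SPARK-ON cells 14 of the 18 had a positive and 4 a negative change (median 0.24, beside 0.007 for all genes tested, 48.2% of them negative), and 9 had an unadjusted p below 0.05, as had 860 of all 16056 genes. Of the 18, 1 rose, beside 0.0685% of all genes. It was DKK1, a secreted Wnt inhibitor, at 73.6 ± 2.6 CPM with lenalidomide and 50.6 ± 4.2 CPM in DMSO (0.54, edgeR adjusted p = 0.0414). DKK1 too was listed with earlier results of these data known, as was the whole list. This count and the list's signs, medians and unadjusted p-values therefore cannot be weighed against those of all genes. In control cells 12 of the 18 had a positive and 5 a negative change (median 0.06), and 0 were called, with 3 at an unadjusted p below 0.05, as had 774 of all 16056 genes.

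**Figure D5:**
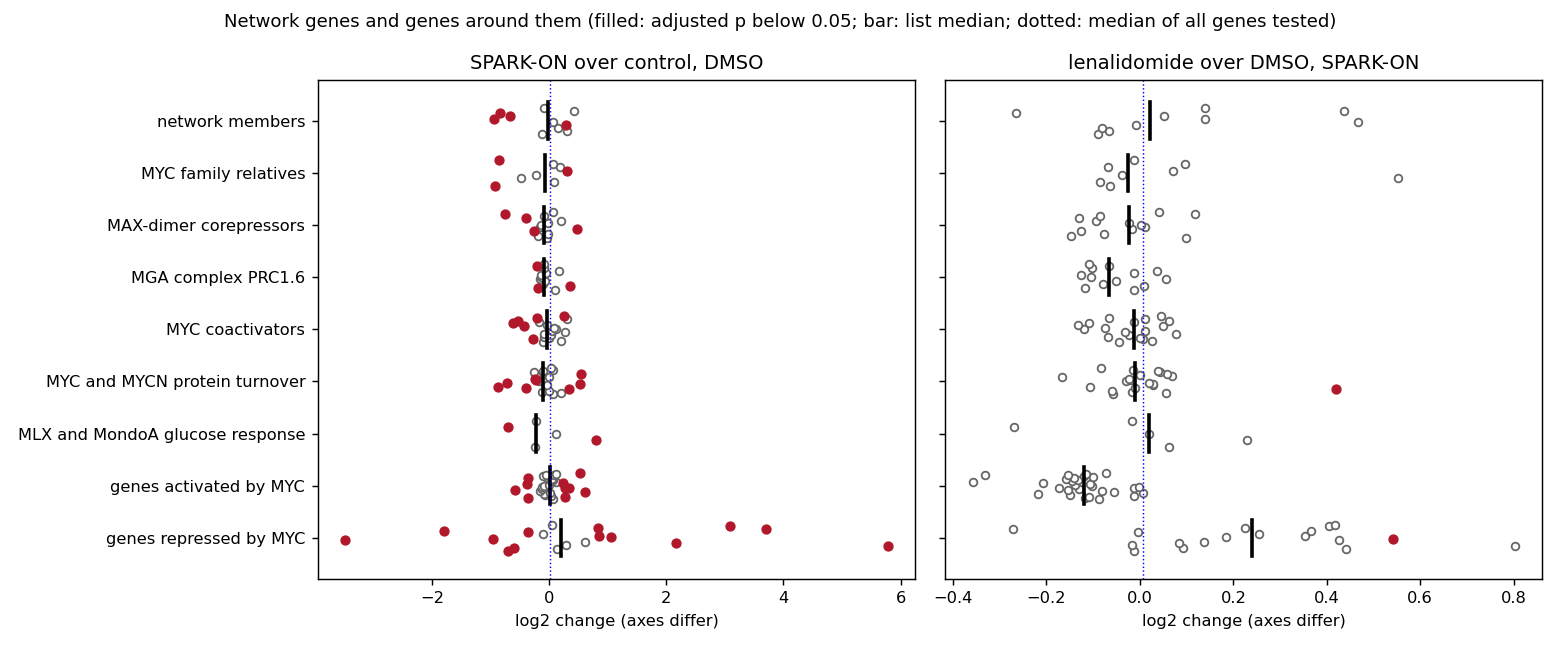
Log2 change (horizontal axes, of different range) of the members and of 8 lists around them, SPARK-ON over control in DMSO on the left and lenalidomide over DMSO in SPARK-ON cells on the right; filled points have an adjusted p below 0.05 by edgeR, bars are list medians and the dotted line is the median of all genes tested. On the right the genes activated by MYC have a median of -0.12 and those repressed by it of 0.24. Both lists were chosen with earlier results of these data known, so these medians are descriptions.

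The patterns most like those of MYCN and MYC were looked for among 10637 genes with a mean of at least 5 CPM, by the root mean square difference of centred log2 CPM over the 11 libraries. For MYCN, whose own deviation from its mean was 0.12, the nearest were GALNT10, RNF144A, TEAD1, ATRN and PHF20, at 0.041 to 0.062, where the median over all genes was 0.23. For MYC, with an own deviation of 0.45, they were YPEL2, the unnamed ENSG00000272655, EPM2A, RHPN1 and FAM110A, at 0.21 to 0.24, where the median over all genes was 0.50.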

How the data were processed

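PolyA RNA of SH-EP cells was sequenced, and the authors deposited raw counts per gene. Per the submitters' processing notes FastQC, fastp, HTSeq and edgeR were used with hg38; the aligner, versions, strand setting and annotation release are not given in the sources used here. Of 14 columns 11 matched a sample label; the other 3 matched none and were not used, so the baseline SH-EP cells are not analysed here. Symbols and exon lengths came from GENCODE 29 (GRCh38), and 61415 of 61533 identifiers matched. The members and lists were chosen with earlier results of these data known.

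Counts were scaled by TMM in edgeR 4.0.16 (R 4.3.3), filtered with filterByExpr (minimum count 10) and fitted with glmQLFit in 1 layout of 4 groups with 7 residual degrees of freedom. Comparisons used glmQLFTest, two-sided, with Benjamini-Hochberg adjustment over 16056 genes and a threshold of 0.05. The SE is the log2 change over the root of F, and 95% intervals use the t distribution of the test. The code was tested on simulated data. Total counts were 6614671 to 21511684, which sets the precision of low genes such as MYC and MXD1. CPM and RPKM were computed from the deposited counts. Alternatives were a replicate block, each library left out, only the groups compared, other scalings and filters, limma-voom 3.58.1 and DESeq2 1.42.0. All 10 members are named, and of each of 11 lists up to 3 genes with the smallest p among those called in a comparison.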

Additional observations from a re-analysis of the deposited data

How the results depend on the processing

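Over 19 alternatives, 901 of 940 values of the 50 member changes kept their direction and side of the threshold, 12 gained a call, 1 lost it and 26 turned direction, of which 0 were called. The count for lenalidomide in SPARK-ON cells was 2 with only the groups compared, in place of 0. The cause was not tested. In the line comparisons the counts were 4 to 6 in DMSO and 5 to 6 with lenalidomide. Library size scaling turned the lenalidomide change of MNT in SPARK-ON cells to 2e-04 and the line change of MYCN with lenalidomide to 0.082.

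With 1 library left out at a time, the changes that turned had these ranges. With lenalidomide in SPARK-ON cells MNT ranged between -0.047 and 0.016. With lenalidomide in control cells MYCN ranged between -0.058 and 0.18, MAX between -0.10 and 0.21, MXD3 between -0.17 and 0.12, MXD4 between -0.17 and 0.0015, MNT between -0.17 and 0.0113, MLX between -0.24 and 0.011, and MGA between -0.21 and 0.26. Between the lines MXD1 ranged between -0.11 and 0.21 in DMSO, and with lenalidomide MYCN between -0.14 and 0.10 and MGA between -0.041 and 0.45. For the difference in response MYCN ranged between -0.049 and 0.20, MAX between -0.30 and 0.0048, MNT between -0.021 and 0.16, MLX between -0.10 and 0.15, and MGA between -0.34 and 0.15. With 1 control lenalidomide library left, that library is assumed to vary like the other groups.

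With the replicate block, 0, 0, 4, 5 and 0 members were called for lenalidomide in SPARK-ON and in control cells, for the lines in DMSO and with lenalidomide, and for the difference in response, as without it. Of 15 pairs of samples with the same number 0 correlated above 0.1 (r between -0.182 and 0.037). These are correlations of deviations from the means of small groups, so that they are not independent of each other. They cannot show whether samples with the same number were grown or handled together. MYC and MXD1, with as few as 52 and 26 counts in a library, had the widest errors.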
